A study of Mus musculus with 12 samples.

Results

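The miRNAs described here are the entries numbered miR-1892 to miR-1983 on a mouse miRNA microarray of peripheral blood cells, a run of numbers given late to miRNAs annotated in the mouse. Members were all rows of the authors' raw intensity table with a number in that range and no star, except miR-1895, miR-1899, miR-1954 and the entries of miR-1937. This left 66 of the 710 miRNAs of the array and set aside 7 entries of the range. The members were therefore chosen by name and not by their values, but after quantile normalization over the 12 arrays the genotypes did not overlap for miR-1895, miR-1899 and miR-1954, so the rule itself lowers the number of such miRNAs among the members. In the raw intensities each of these 3 did overlap. Arrays came from 6 Tff2-KO mice and 6 WT mice, both of the 129/SV strain, with 3 males and 3 females of each genotype and 1 array per mouse. The Tff2-KO mice lack Tff2, which encodes the trefoil peptide TFF2, and had been generated earlier, while the WT mice were bought from Charles River. Origin and genotype therefore differ together and cannot be told apart. The age of the mice is not given in the sources used here.

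miRNAs are short RNAs that guide the silencing complex to mRNAs, mainly through bases 2 to 8 from their 5′ end, the seed, so that miRNAs with the same seed share many predicted targets. A hairpin precursor can release a miRNA from either arm, called 5p and 3p, and usually one arm accumulates more than the other. In blood, a few miRNAs of red cells, myeloid cells and lymphocytes make up most of the miRNA pool, whereas entries annotated late from deep sequencing were often found at low abundance, and for many of them little is known of targets or function. Red cell miRNAs (miR-451, miR-486, miR-144 and miR-16), miR-223 of myeloid cells and miR-150 of lymphocytes were above background on all 12 arrays, while miR-142-3p, a miRNA of all blood lineages, was above it on 1. Markers of other tissues were often above it too. Brain miR-124, muscle miR-133a and epithelial miR-200c were so on 12 arrays, liver miR-122 on 11 and epithelial miR-141 on 10. Muscle miR-1 and miR-206 were so on 5 and 2 arrays and brain miR-9 on 0. A signal above background therefore does not set blood miRNAs apart from those of other tissues. The arrays hold no probe for an mRNA, so loss of Tff2 could not be checked, and in bulk blood fewer cells of a type and less miRNA per cell cannot be told apart.

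A mature sequence of the same name was found in RefSeq (GRCm38.p6) for 37 of the 66 members. They had 37 different seeds, so no 2 of these members share one. The sequences below belong to the members with the largest part in the genotype comparison and to miR-1961, whose seed is that of a well-known family. Capitals mark the seed. No sequence of matching name was found for miR-1907, miR-1930, miR-1939 and miR-1946a.
miR-1946b: gCCGGGCAgugguggcacaugcuuuu
miR-1906: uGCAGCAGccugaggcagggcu
miR-1931: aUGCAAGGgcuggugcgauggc
miR-1928: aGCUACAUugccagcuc
miR-1892: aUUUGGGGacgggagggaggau
miR-1894-3p: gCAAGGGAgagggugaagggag
miR-1894-5p: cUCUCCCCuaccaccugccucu
miR-1960: cCAGUGCUguuagaagagggcu
miR-1900: gGCCGCCCucucugguccuuca
miR-1961: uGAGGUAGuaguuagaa

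In GRCm38.p6, miR-1946b lies at chr9:21613452-21613477 on the minus strand, in no other gene of the RefSeq table. miR-1906 has 2 loci, one at chr12:109544588-109544609 on the plus strand within the bounds of Meg3, an imprinted long noncoding RNA, and the other at chrX:88759485-88759506 on the minus strand in no other gene. miR-1931 (chr10:93162879-93162900, plus strand) lies within Cdk17, a cyclin-dependent kinase gene, and miR-1928 (chr1:74206562-74206578, minus strand) in no other gene. miR-1892 (chr12:54645943-54645964, minus strand) lies within Sptssa, which encodes a small subunit of serine palmitoyltransferase. Both arms of miR-1894 lie on the plus strand within Ppp1r10, a gene for a regulatory subunit of protein phosphatase 1, with the 5p arm at chr17:35917899-35917920 and the 3p arm at chr17:35917938-35917959. miR-1960 (chr5:30170751-30170772, plus strand) is placed within Hadhb, which encodes a subunit of the mitochondrial trifunctional protein, miR-1900 (chr9:21032261-21032282, minus strand) within Icam5, an adhesion molecule gene, and miR-1961 (chr5:92788465-92788481, minus strand) within Shroom3. Of the 59 members with a gene in the table, spread over 19 chromosomes, 45 lie within the bounds of a protein-coding gene, 4 within those of a noncoding gene only and 10 within those of no other gene. The table gives gene bounds only, so exon, intron and the relative strand of the host gene were not assigned.

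The first question was how many of these miRNAs gave a signal above background in blood. The raw intensities are medians over replicate spots after background subtraction, in arbitrary units, and some are below 0. A miRNA was taken as above background on an array when its raw intensity exceeded the size of the lowest value of that array, which ranged from 32 to 88 on Tff2-KO arrays and from 40 to 76 on WT arrays. By this measure a Tff2-KO array had 36 to 49 members (median 44.5) above background, and a WT array 33 to 53 (median 50.5). The Tff2-KO arrays had 47, 36, 48, 42, 38 and 49 members above background (replicates 1 to 6, mean 43.3 ± 5.50, SD, n = 6), and the WT arrays had 33, 50, 51, 52, 48 and 53 (47.8 ± 7.47, SD, n = 6). The genotypes overlap in these numbers. Tff2-KO replicate 2 and WT replicate 1, the lowest of their genotypes, are also the 2 arrays with the highest background threshold, 88 and 76. The other 644 miRNAs of the array had the same kind of difference, with 72.4% ± 7.79 of them above background per Tff2-KO array, against 77.5% ± 9.76 per WT array (SD, n = 6 arrays per genotype).

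**Figure D1:**
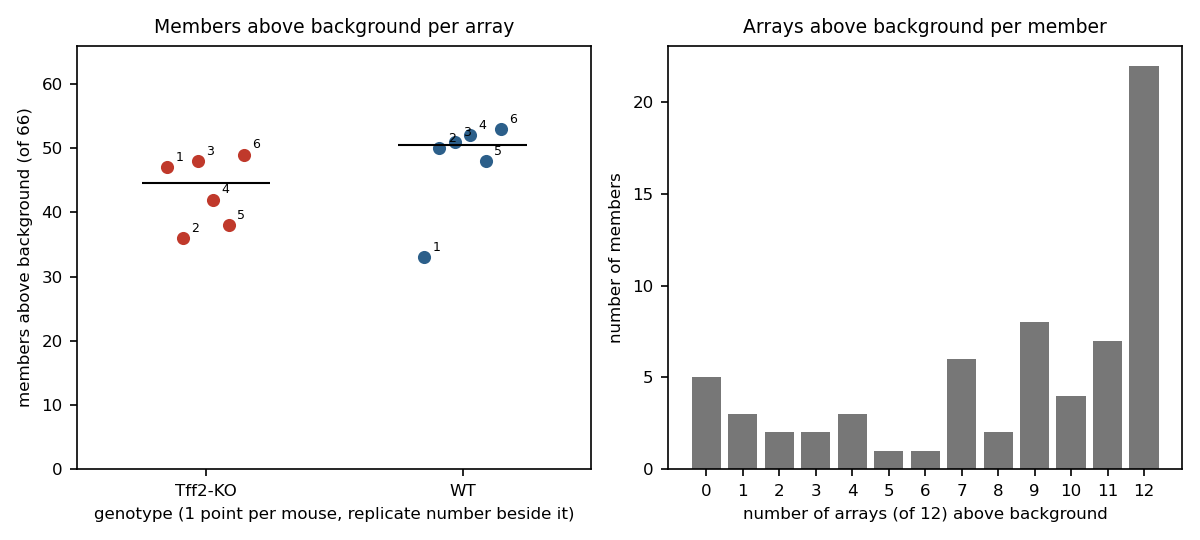
Left, number of members above background on each array (of 66, y axis) in Tff2-KO and WT mice, 1 point per mouse with its replicate number and the median as a line. Right, number of members (y axis) by the number of arrays above background (x axis, 0 to 12), with 22 members at 12 arrays and 5 at none.

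Counted per member, 22 of the 66 (33.3%) were above background on all 12 arrays, against 278 of the other 644 miRNAs (43.2%). Another 19 members (28.8%) were above it on most arrays of both genotypes, that is on 4 or more of 6, against 22.2% of the other miRNAs. In 9 members (13.6%, against 71 or 11% of the other miRNAs) this held for WT mice only, namely miR-1902, miR-1927, miR-1941-3p, miR-1942, miR-1943, miR-1957, miR-1963, miR-1971 and miR-1983. For Tff2-KO mice only it held in 0 members, against 22 of the other miRNAs (3.42%), so the other miRNAs leaned to WT mice too. These 9 lay close to the threshold, with 2 or 3 Tff2-KO arrays and 4 to 6 WT arrays above it, and with 1 threshold set for every array the numbers were 2 members for Tff2-KO mice only and 3 for WT mice only. In all, 50 members (75.8%) were above background on most arrays of at least 1 genotype, and 514 of the other miRNAs (79.8%). With a threshold of 2 times that size, 29 members and 342 of the other miRNAs remained above it.

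The other 16 members (24.2%, against 20.2% of the other miRNAs) had no majority of arrays above background in either genotype. For 5 of them, miR-1898, miR-1941-5p, miR-1961, miR-1964 and miR-1969, no array was above it. The remaining 11 were above background on a few arrays only, namely miR-1897-3p, miR-1903, miR-1933-5p, miR-1934, miR-1938, miR-1940, miR-1951, miR-1953, miR-1958, miR-1982.1 and miR-1982.2. miR-1961 was the dimmest of these, with raw intensities of -28 to 16 in Tff2-KO mice and -36 to 36 in WT mice. It carries the let-7 seed GAGGUAG, which 10 other mature mouse miRNAs of the RefSeq table have, but is only 17 bases long. On the same arrays the probes for let-7a, let-7b, let-7c, let-7d, let-7f, let-7g and let-7i were above background on all 12 arrays, let-7e on 11 and miR-98 on 4.

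Most members gave modest signals. After quantile normalization over the 12 arrays, 25 of the 66 (37.9%) were brighter than the median miRNA of the array, and the geometric mean intensity over all mice had a median of 75.7 over the members and 92.1 over the other miRNAs. It was under 50 in 18 members and under 100 in 42. Only 7 members reached 200 and only miR-1939 reached 500, with a geometric mean of 758.3 and a place of 72 in the order of all 710. A probe's signal also depends on the probe, so this order is one of signals and not of amounts. Together the members gave 1.12 to 2.16% of the summed raw signal of a Tff2-KO array and 1.26 to 3.05% of that of a WT array.

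The second question was how the members differed between Tff2-KO and WT mice. In limma over all 710 miRNAs, 0 of 66 members passed an adjusted p under 0.05, as did 0 of the 710 (0%), and the smallest adjusted p of a member was 0.335 (miR-1907 and miR-1946b). At an unadjusted p under 0.05 there were 6 members (9.09%), and over the whole array 67 miRNAs (9.44%). Of these, 2 members (miR-1892 and miR-1894-3p, 3.03%) were higher in Tff2-KO mice, beside 3.8% of the array, and 4 (miR-1946b, miR-1907, miR-1906 and miR-1931, 6.06%) were lower, beside 5.63% of the array. These shares lie near those of the array. The methods' t-test gave the same 2 higher and 4 lower and again 0 after adjustment. The split moved with the scaling, to 0 higher and 5 lower without normalization, 2 and 2 after median scaling and 1 and 8 after scaling to the 75th percentile. Counts over all 710 miRNAs moved as well, to 10 higher and 52 lower without normalization. They were 50 and 33 after median scaling and 24 and 63 after scaling to the 75th percentile. For 0 members did the genotypes not overlap, beside 8 of the 710 miRNAs (1.13%), 3 of which the rule set aside.

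Over the 66 members the log2 difference, Tff2-KO minus WT, had a median of -0.06 (29 members above 0 and 37 below), beside 0.01 over all 710 miRNAs and 0.02 over the other 644. The median turned to 0.02 without Tff2-KO replicate 5. In 47 members it was within 0.5 of 0, and the median standard error was 0.31. No fold change is given for the 20 members with 2 or fewer arrays above background in a genotype. The 46 others had differences between -1.01 and 0.67, 21 of them above 0 and 25 below. In the plot of differences by member, the standard error of miR-1936, the member furthest below 0, spans 0.

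**Figure D2:**
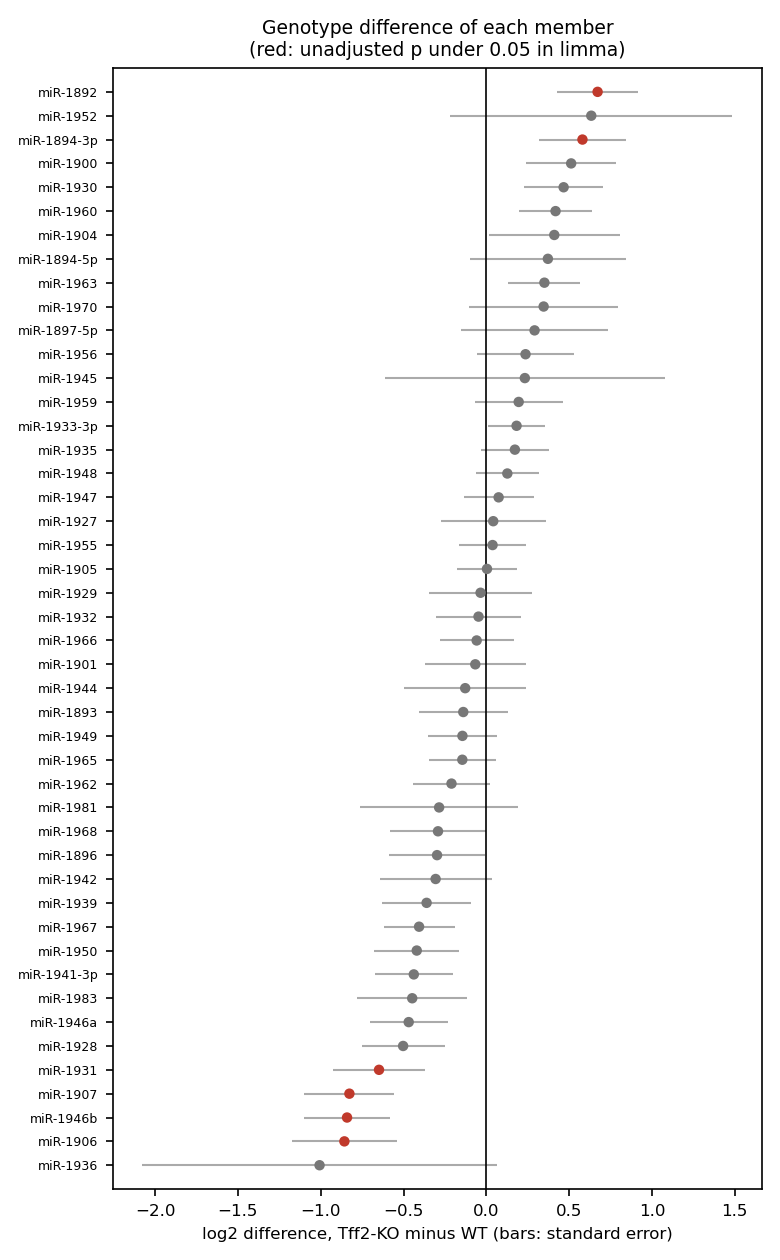
Log2 difference, Tff2-KO minus WT (x axis), with its limma standard error, for the 46 members above background on more than 2 arrays of each genotype, 6 mice per genotype. Red points mark the 6 members at an unadjusted p under 0.05, of which none passed adjustment; 2 of them lie above 0 and 4 below.

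Among the members with lower signals in Tff2-KO mice, miR-1946b had the smallest p. Its normalized intensity was 140.7 at the lowest, 211.8 in the median and 307.0 at the highest in Tff2-KO mice, against 230.7, 394.3 and 568.4 in WT mice. In 4 of 6 Tff2-KO mice it was under the lowest WT mouse, and only Tff2-KO replicates 1 and 3 reached the WT range. The log2 difference was -0.84 (standard error 0.26, limma unadjusted p = 0.00682, adjusted p = 0.335), and -0.51 after median scaling. Its seed CCGGGCA is shared in the RefSeq table with 1 other mature miRNA, miR-8111.

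miR-1907 lies within the bounds of Trps1, a gene for a transcriptional repressor, and was spread narrowly in Tff2-KO mice. It had a lowest, median and highest intensity of 142.7, 165.7 and 213.3 in Tff2-KO mice, against 200, 278.5 and 613.0 in WT mice. In Tff2-KO mice 5 of 6 values were under every WT mouse, while Tff2-KO replicate 1 reached 213.3. WT replicate 2, at 613.0, was far above the other WT mice. The difference on the log2 scale was -0.83 (standard error 0.27, limma adjusted p = 0.335).

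miR-1906 has a locus within Meg3, and its size of difference depended on the scaling. Its intensity was 233.7 at the lowest, 310.4 in the median and 549.0 at the highest in Tff2-KO mice, against 317.7, 598.9 and 1262 in WT mice. In WT mice 5 of 6 values were above every Tff2-KO mouse, while WT replicate 4 was at 317.7, within the Tff2-KO range. This gave a log2 difference of -0.86 (standard error 0.32, limma adjusted p = 0.414). It was -0.53 without normalization, -0.38 after median scaling and -0.56 after scaling to the 75th percentile.

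miR-1931 had a lowest, median and highest intensity of 52.0, 125.8 and 141.3 in Tff2-KO mice, against 128.7, 153.8 and 223.3 in WT mice. Tff2-KO replicates 3 and 4, at 74.0 and 52.0, were far under the WT range, and the other 4 Tff2-KO mice were near the lower WT mice. The log2 difference was -0.65 (standard error 0.28, limma adjusted p = 0.507), and miR-1931 was above background on 5 Tff2-KO and 6 WT arrays.

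miR-1928, a sequence of 17 bases, shares the seed GCUACAU with the well-studied pair miR-221-3p and miR-222-3p. It was at 59.7, 86.5 and 158.7 (lowest, median and highest) in Tff2-KO mice, against 84.5, 129.3 and 176.0 in WT mice. Only 2 of 6 Tff2-KO mice were under every WT mouse, and only WT replicate 2 was above every Tff2-KO mouse. The log2 difference was -0.50 (standard error 0.25, limma unadjusted p = 0.068). The probes for miR-221 and miR-222 had log2 differences of 0.15 (standard error 0.29) and -0.17 (standard error 0.24), so the 3 miRNAs of this seed did not all lie on the same side of 0.

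The 2 members brightest beside miR-1906 and miR-1946b averaged lower in Tff2-KO mice as well, with wider overlap. miR-1939 was at 388.3, 717.9 and 1018 (lowest, median and highest) in Tff2-KO mice, against 613.0, 899.2 and 1062 in WT mice. Its log2 difference of -0.36 (standard error 0.27, limma adjusted p = 0.631) turned to 0.10 without normalization, 0.25 after median scaling and 0.07 after scaling to the 75th percentile, so its direction depends on the scaling. Without Tff2-KO replicate 1 it was -0.21. miR-1946a was at 169.5, 226.2 and 293.2 in Tff2-KO mice, against 170.2, 332.8 and 438.0 in WT mice (log2 difference -0.47, standard error 0.24, limma adjusted p = 0.520), and its lowest WT mouse was replicate 4. After median scaling this difference was -0.18.

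Of the members with higher signals in Tff2-KO mice, miR-1892 had the smallest p. Its intensity was 167.3 at the lowest, 274.8 in the median and 388.3 at the highest in Tff2-KO mice, against 131.2, 157.1 and 243.3 in WT mice. In 4 of 6 Tff2-KO mice it was above every WT mouse, and Tff2-KO replicates 4 and 5 were within the WT range. The log2 difference was 0.67 (standard error 0.24, limma unadjusted p = 0.017, adjusted p = 0.403).

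miR-1894-3p had a lowest, median and highest intensity of 171.7, 331.0 and 363.8 in Tff2-KO mice, against 116.5, 189.9 and 272.3 in WT mice. Tff2-KO replicates 1 to 4, between 315.7 and 363.8, were above every WT mouse, and replicates 5 and 6 lay among the WT values. The genotypes differed by 0.58 on the log2 scale (standard error 0.26, limma unadjusted p = 0.0476, adjusted p = 0.507). miR-1894-5p, from the other arm of the precursor, was above background on 11 of the 12 arrays. It had a log2 difference of 0.37 (standard error 0.47), in the same direction and smaller than its standard error. By sex, miR-1894-5p was at 1.36 in males and -0.62 in females, so the arms had the same direction in males only. The female value leans on WT replicate 4, at 395, against 118 and 143.2 in WT replicates 5 and 6. Female Tff2-KO mice were at 84.7 to 170.7.

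Next in order of p came miR-1930, miR-1960 and miR-1900, none of which reached an unadjusted p under 0.05 in limma (adjusted p = 0.531 for miR-1930 and 0.532 for the others). miR-1930, within the bounds of the ubiquitin-conjugating enzyme gene Ube2g2, was at 108.0, 130.7 and 247.0 in Tff2-KO mice, against 84.5, 105.0 and 144.7 in WT mice. Tff2-KO replicates 2 and 3 were above every WT mouse and the other 4 within the WT range. miR-1960 was at 67.8, 104.6 and 123.7 in Tff2-KO mice, against 55.3, 70.8 and 104.8 in WT mice, and miR-1900 at 68.7, 72.2 and 143.2, against 38.7, 52.5 and 108.0. Their log2 differences were 0.47 (standard error 0.24), 0.42 (0.22) and 0.51 (0.27). Without normalization miR-1960 was at 0.21 and miR-1900 at 0.28, and after scaling to the 75th percentile they were at 0.18 and 0.25. For miR-1900, 4 of 6 WT mice were under every Tff2-KO mouse, but the top of each group was a single mouse, Tff2-KO replicate 3 and WT replicate 6.

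**Figure D3:**
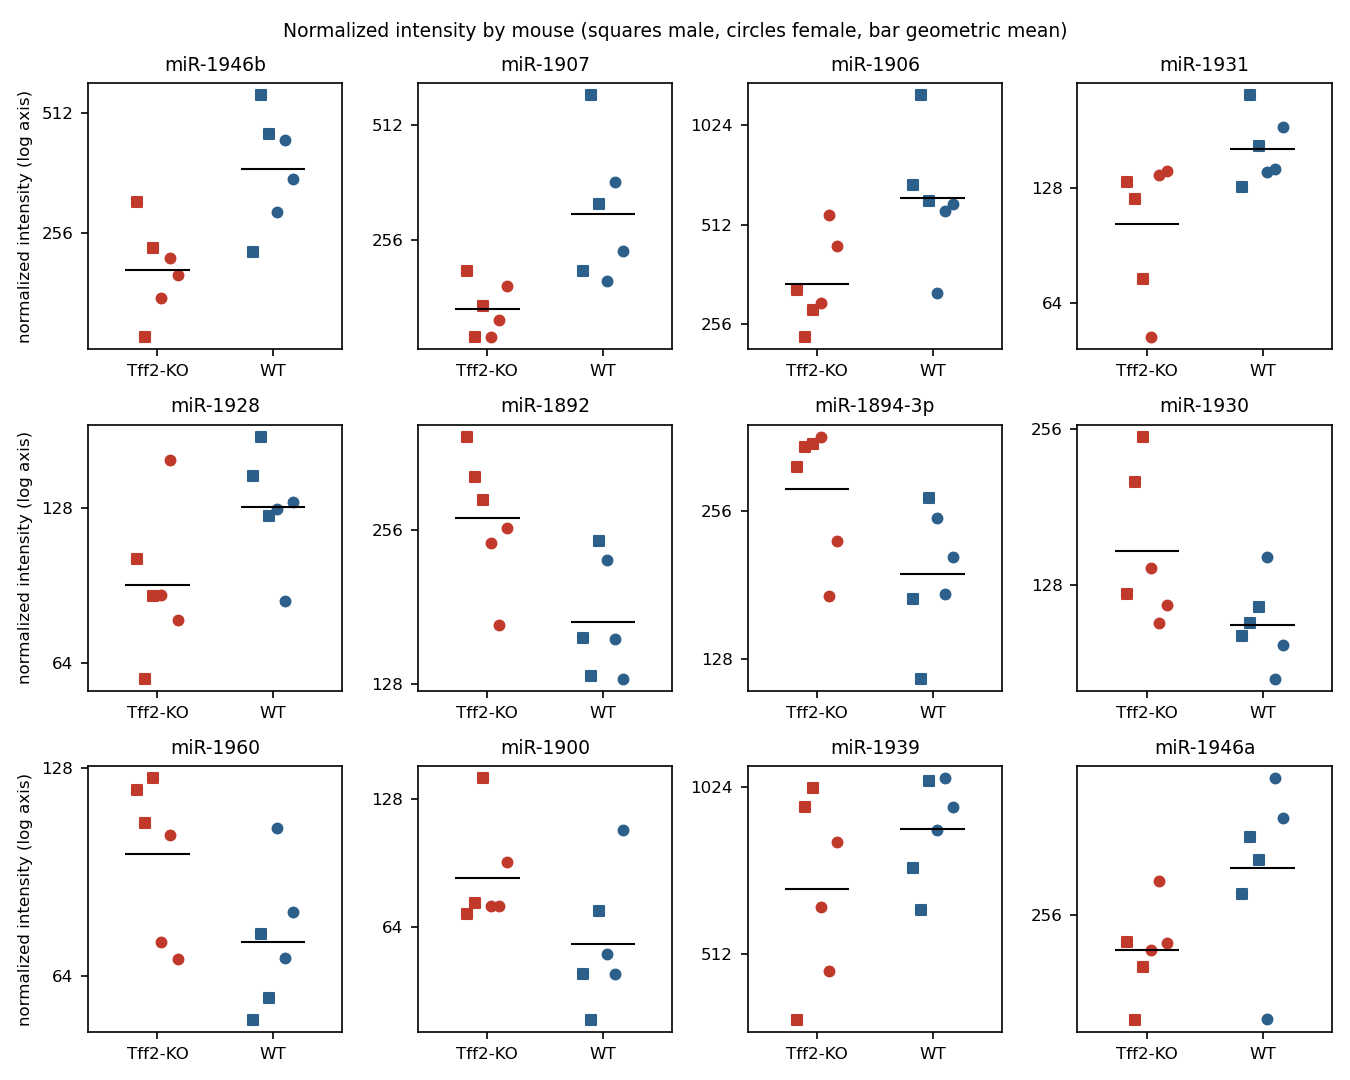
Normalized intensity (log axis) of the 12 named members in each mouse, Tff2-KO left and WT right in every panel, with squares for males, circles for females and a bar at the geometric mean of 6 mice. Values of the genotypes overlap in every panel, for miR-1907 only through Tff2-KO replicate 1 at 213.3 against WT mice from 200 upward.

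Of the 12 named members, 6 (miR-1907, miR-1946b, miR-1906, miR-1928, miR-1892 and miR-1894-3p) were among those the study listed as differing on these same mice, so their direction here is no independent evidence. The 34 members with a fold that are not named had log2 differences between -1.01 (miR-1936) and 0.63 (miR-1952), 16 of them above 0 and 18 below, and their smallest unadjusted p in limma was 0.0825 (miR-1967). For 3 of the brighter among them the genotypes were close: miR-1905 differed by 0.004 (standard error 0.18), miR-1965 by -0.15 (0.20) and miR-1893 by -0.14 (0.27). In miR-1936, the furthest below 0, Tff2-KO values were far apart. It was at 1 and 10 in Tff2-KO replicates 5 and 4 and between 58.7 and 146.0 in the other 4 Tff2-KO mice, against 28 to 137.3 in WT mice, and its standard error was 1.07.

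Both sexes were present in each genotype, with 3 mice per sex and genotype. The genotype difference had the same sign in males and females in 28 of the 66 members (42.4%), in 24 of the 46 with a fold and in 366 of all 710 miRNAs (51.5%). Among the 12 named members it had the same sign in 11, and miR-1960 was the exception with 0.90 in males and -0.06 in females. These 12 were chosen largely by their difference over both sexes, so this count is a description.

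The difference in miR-1906 was -1.53 in males and -0.19 in females. Its male Tff2-KO mice were at 233.7, 283.0 and 324.3, against 604.8, 673.5 and 1262 in male WT mice, with no overlap. Its female Tff2-KO mice were at 296.5, 441.0 and 549.0, against 317.7, 561.7 and 593.0 in female WT mice, with wide overlap. The difference between the sexes, male minus female, was -1.34 (standard error 0.54, adjusted p of the limma interaction 0.45). In contrast, miR-1946b had nearly the same difference in males (-0.85) and females (-0.83), and so did miR-1931 (-0.67 and -0.63). Among the members higher in Tff2-KO mice the difference in males was 0.95 for miR-1892, 0.94 for miR-1894-3p, 0.75 for miR-1930 and 0.81 for miR-1900, and in females it was 0.39, 0.22, 0.18 and 0.22. Of those lower, miR-1928 was at -0.87 in males and -0.13 in females, miR-1946a at -0.64 and -0.30, and miR-1939 at -0.11 and -0.61. The lack of overlap within a sex was not particular to miR-1906. Among the named members it held in males also for miR-1892, miR-1894-3p, miR-1930, miR-1960, miR-1928 and miR-1946a, and in females for miR-1946b and miR-1907. The named members were chosen largely by their difference over these same mice, and members not named were not looked at for this. With 3 mice per group such a gap arises easily, and its share over the array was not counted.

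By the interaction term, 0 members had an adjusted p under 0.05 in limma, beside 1 of the 710 miRNAs, and 11 members had an unadjusted p under 0.05, beside 71 of the 710. The smallest adjusted p of a member was 0.0826, for miR-1969, which was above background on no array. In fits within one sex, 1 member passed adjustment in males (miR-1969), beside 2 of the 710 miRNAs. In females it was 1 member (miR-1903, above background on 1 array), beside 3 of the 710. The calls of these 2 members each rest on values set to the floor of 1 after normalization: miR-1969 was at 1 in all 3 male Tff2-KO mice and miR-1903 at 1 in all 3 female WT mice.

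**Figure D4:**
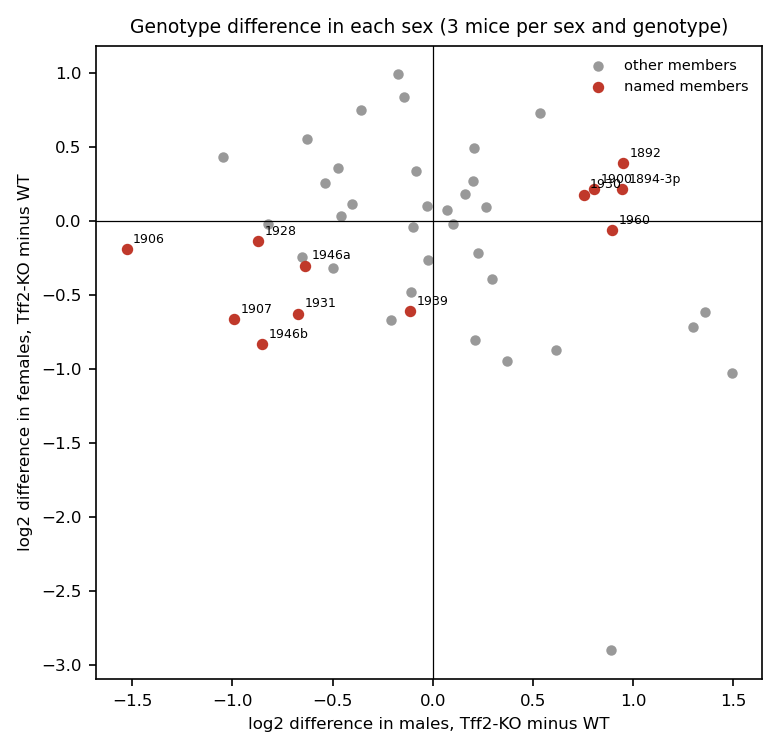
Log2 difference, Tff2-KO minus WT, in males (x axis) and in females (y axis) for the 46 members with a fold, 3 mice per sex and genotype; red points are the 12 named members. Points in the lower left and upper right have the same sign in both sexes, as 24 of the 46 do.

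Some members varied together from mouse to mouse. Over the 46 members with a fold there are 1035 pairs, and Pearson's r of their log2 intensities over the 12 mice had a median of 0.01, with 4 pairs over 0.8 and 4 under -0.8. The points of a pair share the arrays and the normalization, so these values are a description. miR-1907 and miR-1946b, both lower in Tff2-KO mice, had r = 0.92 (0.84 after subtracting the genotype means), and miR-1906 and miR-1907 had r = 0.82 (0.67). The higher pair, miR-1892 and miR-1894-3p, had r = 0.84 (0.75). miR-1894-3p and miR-1906 ran against each other, with r = -0.91 (-0.85 within genotypes): Tff2-KO replicate 5 had the highest miR-1906 and the lowest miR-1894-3p of its genotype, and WT replicate 2 likewise of WT mice. miR-1936 and miR-1981, both lowest in Tff2-KO replicate 5, had r = 0.92. On the arrays of Tff2-KO replicates 4 and 5 both were under the background threshold, so this r includes values below background.

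Where both arms of a precursor were on the array, signals were often unequal. miR-1933-3p was above background on 12 arrays and miR-1933-5p on 1, miR-1941-3p on 9 and miR-1941-5p on 0, and miR-1897-5p on 10 and miR-1897-3p on 4. For miR-1894 both arms had a signal, the 3p arm on 12 arrays and the 5p arm on 11, with r = 0.64 over the 12 mice. The 2 related entries miR-1946a and miR-1946b were above background on 12 arrays each, had r = 0.72 and both averaged lower in Tff2-KO mice, with log2 differences of -0.47 and -0.84. miR-1982.1 and miR-1982.2 were above background on 2 and 3 arrays.

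Base composition went along with signal. Over the 37 members with a sequence, of 17 to 26 bases (median 22), the GC content ranged from 35.3 to 68.2% (median 54.5%), and its Pearson's r with the mean log2 intensity was 0.66 (n = 37 miRNAs). These miRNAs share the 12 arrays, and the dimmest of them hold values set to the floor of 1. Of the 18 members above the median GC content, 7 were above background on all arrays and 0 on none, while of the 19 at or under it these numbers were 2 and 4. In 161 other miRNAs of the array with a sequence of the same name, r was 0.32. GC content was less closely related to the genotype difference (r = 0.24, n = 25 members with a fold and a sequence).

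**Figure D5:**
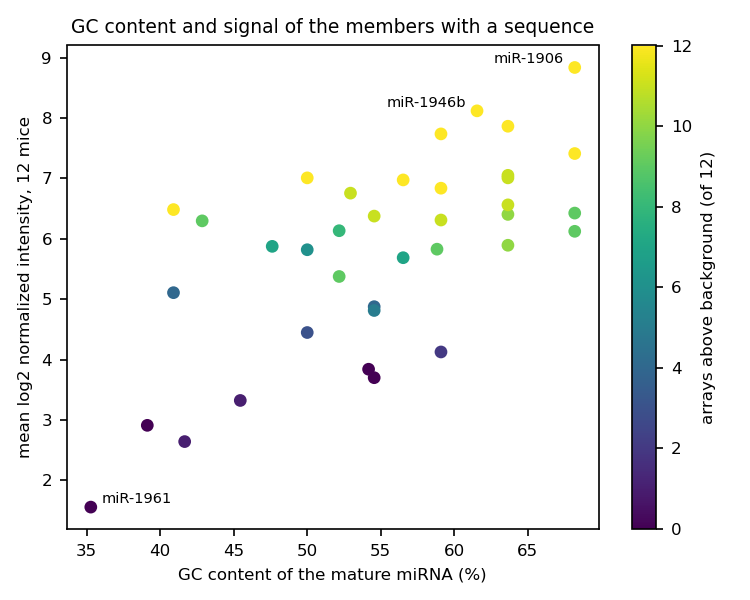
GC content of the mature miRNA (x axis, %) and mean log2 normalized intensity over 12 mice (y axis) for the 37 members with a sequence, coloured by the number of arrays above background. miR-1961, at 35.3% GC, is lowest on both axes, and miR-1906 has the highest signal at 68.2% GC.

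The 2 members with the smallest p among those higher in Tff2-KO mice are both rich in G. miR-1894-3p is 59.1% G and 90.9% purine, miR-1892 is 54.5% G and 77.3% purine, and medians over the 37 members were 36.4% G and 52.2% purine. They share a run of 6 bases (AGGGAG), which miR-1904 and miR-1941-5p also hold, while their seeds, UUUGGGG and CAAGGGA, differ. A run of 6 bases (AGGGCU) is likewise shared by miR-1906 and miR-1931, both lower in Tff2-KO mice. It is also found in miR-1960 and miR-1956, with log2 differences of 0.42 and 0.24, so it does not go with a direction. Neither G content (r = 0.06, n = 25) nor purine content (r = -0.03, n = 25) was related to the genotype difference over the members in general. Without miR-1892 and miR-1894-3p, r for purine content was -0.33 (n = 23). The 5p arm of miR-1894 is its counterpart, with 13.6% purine, and miR-1952, at 11.8% purine, had a log2 difference of 0.63 with a standard error of 0.85.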

How the data were processed

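Total RNA with miRNAs from pelleted blood cells was hybridized to Geniom biochips with replicate spots per miRNA and labelled with biotin on the chip. The authors deposited a raw table of intensities (the median signal, background subtracted, then the median over spots, with no normalization between arrays) and a value table of intensities after their own quantile normalization, used here as an alternative. For the main fit the raw table was quantile normalized with limma 3.58.1 (R 4.3.3), all 12 arrays together, after which values under 1 (4.30% of all) were set to 1, and log2 values were fitted with lmFit and eBayes without covariates. P-values are two-sided and were adjusted by Benjamini-Hochberg over all 710 miRNAs. Each mouse was a replicate. Arrays give no counts, so precision is limited by their number. A fit with genotype, sex and their interaction tested the difference between the sexes. Replicate numbers did not pair the mice.

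Named are the 5 members with the smallest p in each direction, the members listed by the study, the 5 with the highest mean log2 signal, and arms or shared seeds. Members and lists were chosen with earlier results of these data known. The alternatives were the authors' value table, no normalization, median scaling, 75th percentile scaling, cyclic loess, an added pseudocount of 16, a restriction to miRNAs brighter than the array median, robust trended eBayes, weights per array, sex or a replicate block in the model, the methods' t-test, each mouse left out, each sex alone, and other background thresholds. The fit was checked on simulated data. Names and sequences were matched to RefSeq tables of GRCm38.p6. Descriptive tables used Python 3.11.15, numpy 2.4.6 and pandas 2.3.3, and plots matplotlib 3.10.9.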

Additional observations from a re-analysis of the deposited data

Results flagged for a closer look

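In 2 of 28 groups of 6 arrays tested, 1 value stood far from the other 5 of its group by Dixon's criterion. About 1 in 20 groups, here 1.4, would be marked by chance. miR-1900 was at a normalized intensity of 143.2 in Tff2-KO replicate 3, against 68.7 to 90.8 in the other Tff2-KO mice. The number of members above background was 33 on the array of WT replicate 1, against 48 to 53 on the other WT arrays, and without this array 52 members were above background on most arrays of a genotype in place of 50.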

How the results depend on the processing

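Under 24 of the 26 alternatives to the limma fit, 0 members passed adjustment. It was 1 in males only and 1 in females only, miR-1969 and miR-1903, above background on 0 and 1 arrays. Over all 710 miRNAs, 2 passed in males only and 3 in females only. With robust trended eBayes 2 of the 710 passed, and 6 of 355 in the restriction to the brighter miRNAs, with 0 members in both. The number of members higher in Tff2-KO mice at an unadjusted p under 0.05, 2 in the main setting, became 0 without normalization, 1 with 75th percentile scaling, cyclic loess, sex as covariate, the replicate block or females only, 5 in males only, and 1 to 4 with a mouse left out (4 without WT replicate 4). Over all 710 miRNAs the number higher was 27 in the main setting. It was 10 without normalization, 24 with 75th percentile scaling, 31 with cyclic loess, 26 with sex as covariate and 16 with the replicate block. In males only it was 53, in females only 14, and with a mouse left out 15 to 44. The number of members lower was 4, and it became 2 with median scaling or in females only, 8 with 75th percentile scaling, and 3 to 7 with a mouse left out (7 without WT replicate 4). Over all 710 miRNAs it was 40, and it became 33 with median scaling, 19 in females only and 63 with 75th percentile scaling. With a mouse left out it was 27 to 52. The replicate block left 4 members lower and 0 at an adjusted p, with a smallest adjusted p of 0.63, and correlations between mice of the same number ran from -0.17 to 0.11. The median difference of the members, -0.06, became -0.26 without normalization, -0.29 with 75th percentile scaling (which moved the median of all 710 miRNAs to -0.12), 0.0039 over the brighter miRNAs, and -0.12 to 0.0226 with a mouse left out (0.0226 without Tff2-KO replicate 5). Of 310 values of the named members under alternatives, 306 kept their direction. miR-1960 turned to -0.0618 in females only. miR-1939 turned to 0.103 without normalization, to 0.247 under median scaling and to 0.0729 under scaling to the 75th percentile. The cause was not tested. An unadjusted p under 0.05 held for miR-1946b under 25 alternatives, for miR-1892, miR-1906 and miR-1907 under 24 each, for miR-1931 under 16 and for miR-1894-3p under 11. The 50 members above background became 29 with a threshold of 2 times the size of the lowest value, 65 with a threshold of 0, 61 with the mean of the values below 0, and 50 to 52 with an array left out. With alternatives chosen after seeing the data, they were 52 with the same threshold on every array and 53 without Tff2-KO replicate 2 and WT replicate 1. Signals near background limit what these arrays can show for the 20 members with no fold.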
